A study of Mus musculus with 15 samples.

Results

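The net response of GM DC was taken as the difference between 2 arrays of cells harvested 20 h after stimulation and 3 arrays of cells harvested at 0 h, across every probe set of the array that is not a manufacturer's control. These 5 arrays are part of a series of 15. GM DC were bone marrow cells of female NOD (non-obese diabetic) mice, 6 to 8 weeks old, grown for 4 days in GM-CSF at 1 ng/ml and purified on a 16% metrizamide density gradient. The 0 h cells are labelled as taken before LPS, and the 20 h cells had been exposed to LPS at 10 µg/ml together with IFN-γ at 50 ng/ml. The rest of the series is 2 GM arrays at 6 h, and arrays of GM4 DC at 0, 6 and 20 h (3, 3 and 2 arrays). GM4 DC were grown with IL-4 at 1 ng/ml beside GM-CSF and purified on a 14.5% gradient. For GM4 0 h replicate 1 the labels give neither cytokine doses nor a gradient. No cells kept for 20 h without stimulus are among the groups, so time in culture and the response to LPS + IFN-γ cannot be told apart. The series describes the replicates as biological, without saying how many mice gave each culture. NOD is a strain that develops autoimmune diabetes, and every group shares that background.

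Dendritic cells take up antigen, sense microbes and present antigen to T cells. LPS, a bacterial cell wall component, is sensed by Tlr4, whose adaptors switch on NF-κB and, through type I interferon, a second wave of gene expression. IFN-γ signals through Jak kinases to induce antiviral proteins, guanylate-binding proteins and the machinery of class I antigen presentation. In cultures of this kind, activation is known for cytokine release, a shift toward glycolysis, nitric oxide production and arrest of cell division.

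Promoter sequences of a few of the most changed genes are shown: interferon-response genes that were higher at 20 h and mitotic genes that were lower. They were picked from the 12 largest changes each way among promoters that hold an ISRE or a CCAAT box, defined here, so they do not represent all of those genes. Each run is read 5′ to 3′ on the gene's strand and ends at the base before the annotated start, from RefSeq on GRCm38.p6. Capitals mark the letters searched for on both strands: an interferon-stimulated response element (ISRE, GAAANNGAA), an IFN-γ-activated site (GAS, TTCNNNGAA), an NF-κB motif (GGGANTTTC) and the CCAAT box (CCAAT); overlapping matches run together.
Cxcl9, chr5:92328080-92328329, minus strand: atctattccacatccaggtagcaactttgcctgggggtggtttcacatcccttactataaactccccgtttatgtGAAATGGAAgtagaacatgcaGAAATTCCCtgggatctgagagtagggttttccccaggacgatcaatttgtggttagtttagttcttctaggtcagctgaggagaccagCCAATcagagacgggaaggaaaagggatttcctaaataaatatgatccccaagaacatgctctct
Ifit1, chr19:34640769-34640888, plus strand: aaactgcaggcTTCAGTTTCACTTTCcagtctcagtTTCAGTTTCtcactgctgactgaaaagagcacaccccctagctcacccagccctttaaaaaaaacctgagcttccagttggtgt
Rsad2, chr12:26456453-26456572, minus strand: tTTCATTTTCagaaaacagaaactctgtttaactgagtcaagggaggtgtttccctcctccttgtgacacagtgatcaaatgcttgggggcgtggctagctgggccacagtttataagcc
Igtp, chr11:58199436-58199555, plus strand: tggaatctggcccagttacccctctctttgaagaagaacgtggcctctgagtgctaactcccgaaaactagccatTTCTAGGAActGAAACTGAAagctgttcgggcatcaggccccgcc
Cks1b, chr3:89418292-89418411, minus strand: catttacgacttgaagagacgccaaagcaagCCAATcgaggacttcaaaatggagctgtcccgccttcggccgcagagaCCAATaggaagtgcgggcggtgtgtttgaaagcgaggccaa
Cdk1, chr10:69352913-69353032, minus strand: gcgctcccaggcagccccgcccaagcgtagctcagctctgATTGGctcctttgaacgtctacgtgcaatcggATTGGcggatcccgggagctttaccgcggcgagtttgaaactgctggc
Top2a, chr11:99024190-99024309, minus strand: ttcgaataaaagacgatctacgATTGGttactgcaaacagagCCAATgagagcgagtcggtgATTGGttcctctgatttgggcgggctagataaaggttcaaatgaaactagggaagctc
In Cxcl9 the ISRE began 175 bases, the NF-κB motif 154 bases and the CCAAT box 65 bases before the start. Ifit1 held 3 ISRE matches within 109 bases of its start, the first pair of them overlapping. Igtp held a GAS at 45 bases and an ISRE at 34 bases. In the 250 bases before the start, Top2a held 6 CCAAT boxes, Cks1b 4 and Cdk1 3. Of the 12 genes with the largest increases, 10 had a promoter in the table, and 6 of these held an ISRE. Those without one were Ptgs2, Ptges and the interferon-response genes Cmpk2, which held none of the motifs, and Ifit2, which held a GAS, CCAAT boxes and an E2F motif. Of the 12 with the largest decreases, 10 had a promoter that was read, of which 8 held a CCAAT box and 1, Ccr2, an ISRE.

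The letters of the ISRE stood in 7.13% of all 32851 RefSeq promoters of 250 bases and in 6.18% of the 8412 that belong to genes measured here. They stood in 6.75% of the 1097 promoters of all genes higher at 20 h and 5.85% of the 1572 of all genes lower, both near the share over the genes measured. In the promoters of genes at least 4-fold changed, they stood in 14.4% of 146 for increases and 4.23% of 213 for decreases. They stood in 6 of the 8 promoters matched to the IFN-γ-induced GTPases and in 9 of the 24 matched to the antiviral genes. The GAS letters stood in 6.09% of the promoters of genes measured, 7.02% for all genes higher and 5.41% for all genes lower. In the 4-fold sets the GAS share was 10.3% for increases and 8.45% for decreases, above the share over genes measured in both directions. The NF-κB letters stood in 1.02% for genes measured, 1.64% for all genes higher, and 4.11% and 1.88% in the same 4-fold sets. The CCAAT box stood in 34.6% for genes measured, 33.7% for all genes higher and 39.4% for all genes lower. It stood in 32.9% of the promoters of genes at least 4-fold higher, 46% of those at least 4-fold lower and 32 of the 52 of the replication and mitosis genes. An E2F motif (TTTCCCGC) stood in 1.52% for genes measured and 3 of those 52, but in 0.939% of the promoters of genes at least 4-fold lower. These shares describe letters in a window and were given no test.

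The deposited values were array signals, one per probe set, scaled so that the trimmed mean of each array was 150.1. They ranged from 0.0133 to 17492 over the 15 arrays. On log2(signal + 16), the GM 0 h arrays correlated with each other at 0.967 to 0.979 and the pair of 20 h arrays at 0.980, against 0.887 to 0.901 between 0 h and 20 h arrays. The median signal was 48.0 ± 0.48 (SD, n = 3) at 0 h and 43.1 ± 2.78 (n = 2) at 20 h. The 3′/5′ ratio of the beta-actin controls, a measure of RNA integrity, was 1.62 to 1.88 at 0 h and 2.15 to 2.26 at 20 h (exact two-sided permutation p = 0.2). That of Gapdh was 1.18 to 2.46 and 1.51 to 1.55 (exact p = 0.8). With 3 against 2 arrays the smallest p of this two-sided permutation test is 0.2. The actin ratios, which did not overlap between the times, gave that smallest p. In a fit with the mean log2 of both ratios as a covariate, every list median given below kept its sign. That mean ran from 0.468 to 1.1 at 0 h and from 0.85 to 0.905 at 20 h, so it overlapped between the times and does not adjust for the actin ratio, whose part in the results was not tested.

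Over the 12422 probe sets, 3358 (27.0%) passed in limma's moderated test at a Benjamini-Hochberg adjusted p under 0.05, of which 1370 (11.0%) were higher at 20 h and 1988 (16.0%) lower. With each gene represented by its brightest probe set, 2567 of 8251 genes (31.1%) passed, of which 1040 (12.6%) rose and 1527 (18.5%) fell. These are the backgrounds for the counts below. Increases reached further than decreases: 48 genes rose and 36 fell at least 8-fold, and 26 rose and 5 fell at least 16-fold, whereas 469 rose and 848 fell at least 2-fold. The median over all genes was 0.005 on the log2 scale, with quartiles of -0.399 and 0.328. When each array was instead centred on its median, the median difference of all probe sets moved from 0.0118 to 0.127, and the split turned to 2000 higher and 1670 lower. Of the 8251 genes, 52.3% had 0 h and 20 h arrays that did not overlap, so non-overlap alone says little in 3 against 2 arrays. While 31.1% passed the test, 31.0% passed and did not overlap. Non-overlap given below for a gene that passed therefore adds little to the call. Every difference below is on the log2(signal + 16) scale with the standard error of the fit over all 15 arrays, and this scale understates changes of dim genes.

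**Figure D1:**
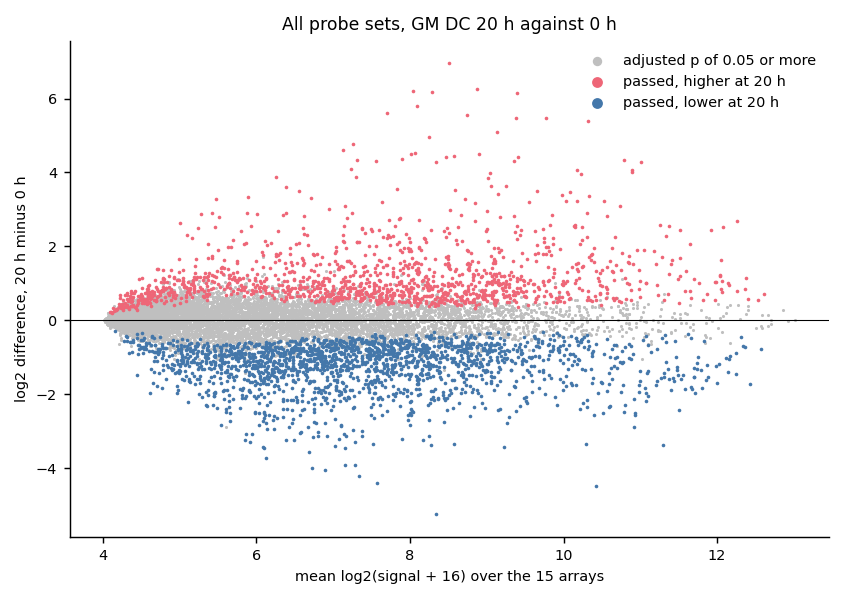
Difference between 20 h and 0 h (log2, vertical axis) against the mean log2(signal + 16) over the 15 arrays (horizontal axis) for all 12422 probe sets; red points passed and were higher at 20 h (1370), blue points passed and were lower (1988). The largest increases reach further from 0 than the largest decreases, while more probe sets lie in the lower set.

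The 12 largest increases were those of Cxcl9, Ptgs2, Iigp1, Cmpk2, Ptges, Ifit2, Ifit1, Rsad2, Saa3, Igtp, Cxcl10 and Nos2. The 12 largest decreases were those of Stmn1, S100a4, Mrc1, Cks1b, Cdk1, Kif20a, Mki67, Ccr2, Kpna2, Rgs2, Top2a and Ephx1. The increases thus held T cell-attracting chemokines, prostaglandin and nitric oxide synthesis and interferon-response genes. The decreases held 6 genes of cell division, a nuclear import receptor, a calcium-binding protein, a lectin receptor and a chemokine receptor. Genes were ranked among those that passed without overlap of 0 h and 20 h arrays, and the ranking depends on the constant. Of the 12 increases, 9 stayed in the first 12 with 1 added and 10 with 64; of the 12 decreases, 8 and 7 did.

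**Figure D2:**
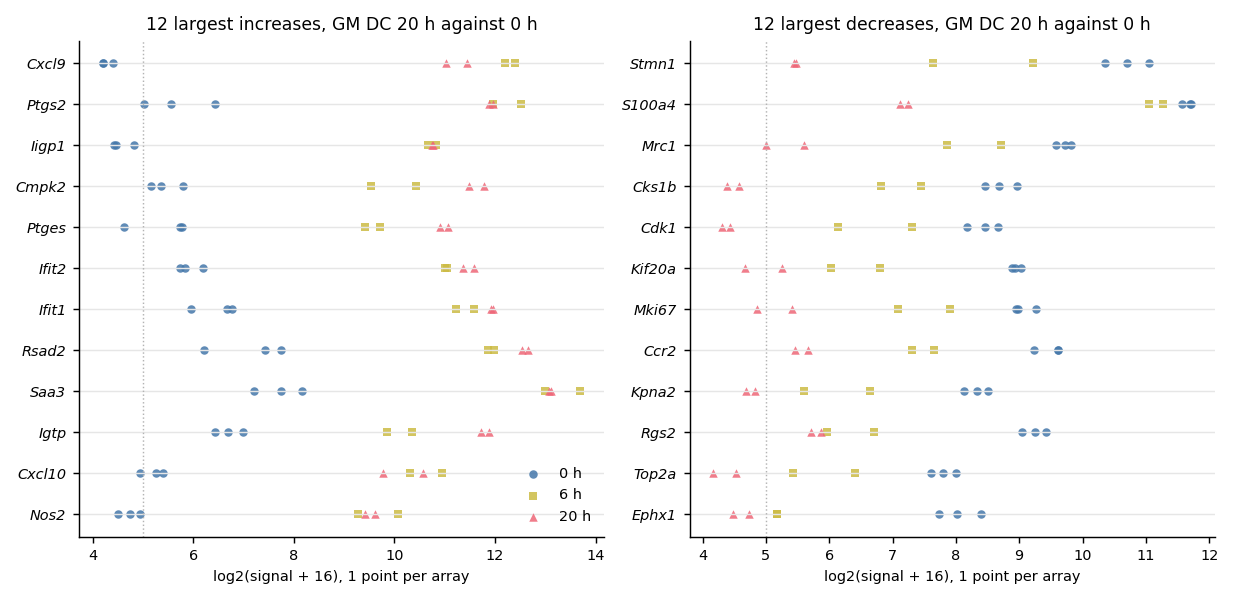
Value of each of the 24 genes on each GM array, as log2(signal + 16), with 3 arrays at 0 h (circles), 2 at 6 h (squares) and 2 at 20 h (triangles); the dotted line marks a signal of 16. The genes were ranked among those without overlap, so their 0 h and 20 h points are apart by selection. Among the decreasing genes the 20 h points of S100a4 stay furthest right of the dotted line.

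Among 20 measured interferon receptors, Jak kinases, Stat and Irf factors, 12 rose, 1 fell and 7 did not pass, with a median of 0.60. Irf1, an interferon-inducible transcription factor, had signals of 359.8, 346 and 365 at 0 h and 3787 and 3925 at 20 h (log2 difference 3.38 ± 0.13). Irf7, the amplifier of type I interferon production, had signals of 171, 161 and 132 at 0 h and 2024 and 1566 at 20 h (3.41 ± 0.20). The 20 h arrays were above all 0 h arrays for both. The receptor chains Ifnar1 (1.42 ± 0.29) and Ifnar2 (1.53 ± 0.21) of the type I interferon receptor rose. Ifngr1, the ligand-binding chain of the IFN-γ receptor, was the list's only decrease (-0.91 ± 0.18). The kinase gene Jak2 did not pass (0.29 ± 0.19), nor did Irf3 (-0.24 ± 0.29). The type I interferon gene Ifnb1 had signals of 19.0, 22.4 and 24.4 at 0 h and 38.2 and 29.1 at 20 h and did not pass (0.38 ± 0.32).

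The GTPases that IFN-γ induces against intracellular microbes all rose, 8 of 8 measured, with a median of 3.45. Iigp1, an immunity-related GTPase, had signals of 5.41, 12.3 and 5.91 at 0 h and 1736 and 1699 at 20 h (6.19 ± 0.32, adjusted p = 1.28e-08). Igtp, another of that family, had signals of 87.6, 111 and 69.8 at 0 h and 3726 and 3377 at 20 h (5.10 ± 0.21, adjusted p = 1.6e-09). For both, the 20 h arrays were far above every 0 h array. The guanylate-binding protein genes Gbp2 (4.03 ± 0.13), Gbp3 (2.91 ± 0.19) and Gbp7 (2.55 ± 0.39) rose with Irgm2 (3.99 ± 0.18), Ifi47 (2.43 ± 0.24) and Irgm1 (1.90 ± 0.29). At 6 h the list's median against the same 0 h arrays was 3.23.

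Antiviral interferon-stimulated genes rose in 22 of 24 cases, 1 fell and 1 did not pass, with a median of 2.20. With all probe sets of a gene averaged, that median was 1.56. Ifit1 and Ifit2 encode proteins that bind viral RNA. Ifit1 had signals of 45.7, 93.0 and 85.7 at 0 h and 3882 and 3989 at 20 h (5.49 ± 0.23, adjusted p = 2.18e-09). Ifit2 had signals of 37.5, 56.9 and 41.4 at 0 h and 3050.2 and 2625 at 20 h (5.55 ± 0.23). Rsad2, which encodes viperin, had signals of 58.1, 155 and 198 at 0 h and 5957 and 6414 at 20 h (5.47 ± 0.34). In all of these the arrays did not overlap, and the 0 h arrays of Rsad2 differed most among themselves. Cmpk2, a mitochondrial nucleotide kinase gene that lies beside Rsad2 and was outside the list, had signals of 19.9, 39.6 and 25.2 at 0 h and 3497 and 2832 at 20 h (6.18 ± 0.30, adjusted p = 8.78e-09). Isg15, the ubiquitin-like modifier, rose (4.07 ± 0.22), as did Usp18, the protease that removes it (3.40 ± 0.15), and the GTPases Mx1 (2.58 ± 0.26) and Mx2 (4.42 ± 0.20). Smaller increases were those of the nuclear body protein Pml (1.38 ± 0.12) and the membrane protein Ifitm3 (0.72 ± 0.13). Oas1g did not pass (0.57 ± 0.40), and Ifi27 fell, with signals of 218, 217 and 223 at 0 h and 26.9 and 34.5 at 20 h (-2.34 ± 0.16). The 0 h and 20 h arrays of Ifi27 did not overlap. The median of the list was 2.24 at 6 h, so the 20 h level stood beside the 6 h level, each against the same 0 h arrays.

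Brakes on these pathways rose too: of 21 regulatory genes measured, 14 rose, 2 fell and 5 did not pass (median 1.50). Socs1, which blocks Jak kinases, had signals of 282, 275 and 174 at 0 h and 3946 and 3899 at 20 h (3.95 ± 0.22). Socs3, which acts on IL-6 family receptors, had signals of 135, 132 and 143 at 0 h and 1984 and 2399 at 20 h (3.85 ± 0.36). Both were higher on each 20 h array. Il18bp, a soluble trap for IL-18, had signals of 66.1, 35.7 and 36.3 at 0 h and 1404 and 1373 at 20 h (4.54 ± 0.24), and its ligand gene Il18 did not pass (-0.55 ± 0.24). The anti-inflammatory cytokine Il10 rose (2.52 ± 0.21) with its receptor chain Il10ra (0.93 ± 0.15). The IL-1 antagonist Il1rn (1.64 ± 0.16) and decoy receptor Il1r2 (1.16 ± 0.24) rose. Socs2 (-1.47 ± 0.20) and Tgfb1 (-1.10 ± 0.21) fell. Ptx3, a soluble pattern recognition protein, had signals of 280.2, 219 and 338 at 0 h and 224 and 203 at 20 h, with 3402 and 4259 at 6 h, and did not pass at 20 h (-0.34 ± 0.33). With a constant of 64 the median of the list was 0.97.

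Genes of LPS recognition and Toll-like receptor signalling changed unevenly: of 11 measured, 5 rose and 2 fell. Cd14, the LPS co-receptor, rose (1.01 ± 0.19), as did the adaptors Myd88 (0.97 ± 0.17) and Traf6 (1.27 ± 0.14) and the receptor gene Tlr6 (2.30 ± 0.20). The kinase Irak1 (-0.80 ± 0.17) and Ly86, the partner of the receptor-like protein Cd180 (-1.62 ± 0.14), fell. Of 17 NF-κB pathway genes, 13 rose (median 0.78, beside 1.11 at 6 h). The 4 that did not pass were Tank, Rel, Relb and Ikbkb, with values from -0.18 to 0.40. The inhibitor Nfkbia had signals of 1187, 1100.1 and 1446 at 0 h and 4966 and 5437 at 20 h (2.06 ± 0.18). The ubiquitin-editing inhibitor Tnfaip3 (1.50 ± 0.33) and the subunit Rela (1.31 ± 0.14) also rose.

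Immediate early genes, which respond within minutes to hours of a stimulus, split at 20 h into 7 that rose, 6 that fell and 8 that did not pass. Atf3, a stress-induced repressor, had signals of 1179.7, 1327 and 1780.4 at 0 h and 7657 and 7765 at 20 h (2.44 ± 0.20). Ier3 (2.26 ± 0.38), Fosl1 (2.07 ± 0.36) and Junb (1.47 ± 0.19) rose. Egr2, a zinc finger factor, had signals of 469.5, 459 and 345 at 0 h and 41.7 and 38.1 at 20 h (-2.97 ± 0.21). Fos had signals of 1844, 1319 and 1839 at 0 h and 263 and 320.4 at 20 h (-2.44 ± 0.27), and Egr1 fell as well (-2.11 ± 0.23). The 20 h arrays were below every 0 h array for both Egr2 and Fos. Myc, a driver of growth and division, fell (-1.42 ± 0.23). Rgs2, a brake on G protein signalling outside the list, was among the 12 largest decreases, with signals of 594, 514 and 673 at 0 h and 42.3 and 36.3 at 20 h (-3.46 ± 0.20).

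**Figure D3:**
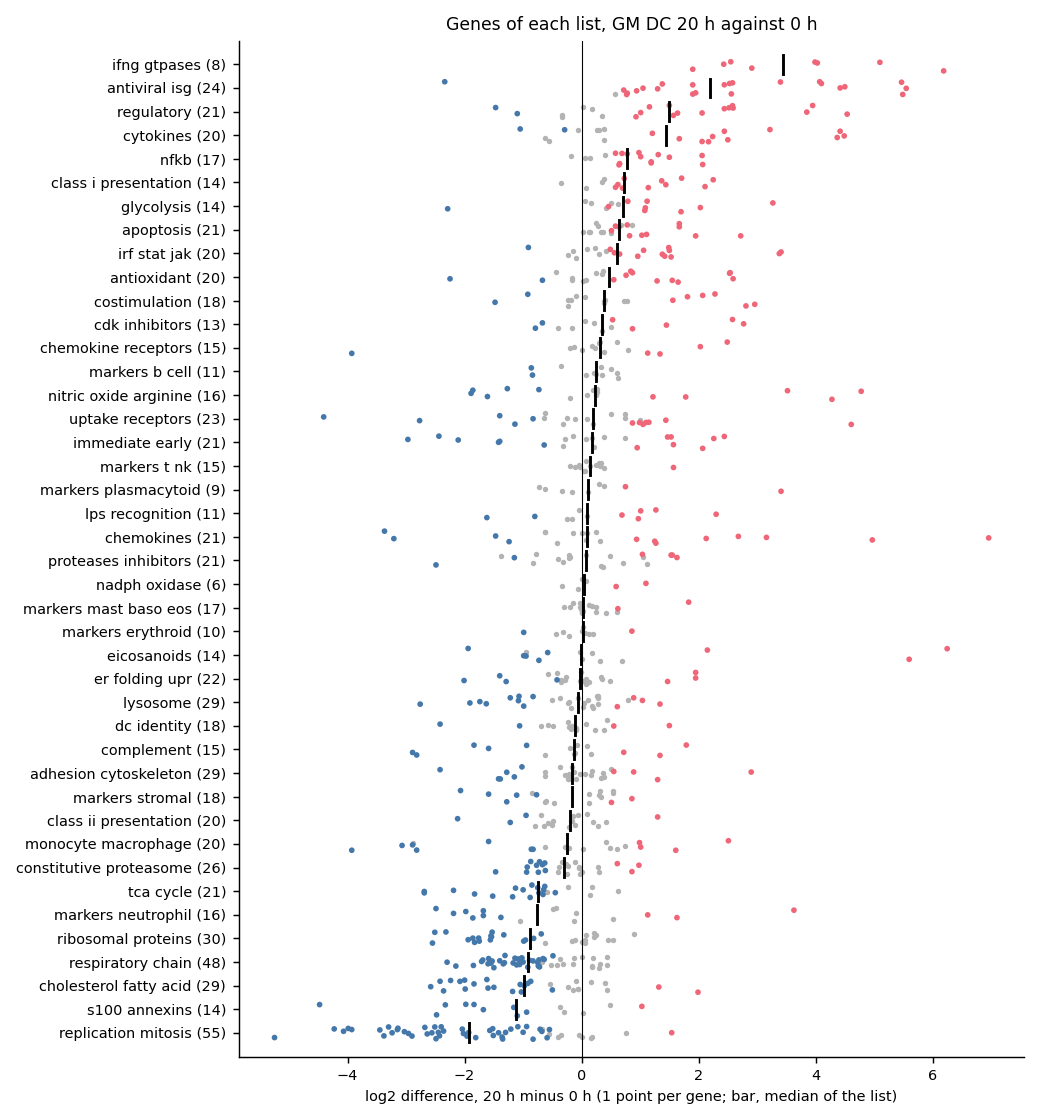
Difference between 20 h and 0 h (log2, horizontal axis) of each measured gene in the 42 lists, ordered by list median (black bar), with the number measured in parentheses; red and blue points passed and were higher or lower, grey points did not pass. The IFN-γ-induced GTPases and antiviral genes lie at the high end, and the replication and mitosis genes at the low end.

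Cytokine genes were higher at 20 h in 11 of 20 cases and lower in 2, with a median of 1.44. Il6 had signals of 38.9, 29.2 and 29.8 at 0 h and 1662 and 620.4 at 20 h, against 6159 and 4918 at 6 h, and rose by 4.42 ± 0.29 from 0 h. Il12b, the shared subunit of IL-12 and IL-23, had signals of 33.4, 20.3 and 58.0 at 0 h and 281 and 241 at 20 h, with 3856 and 3087 at 6 h (20 h against 0 h 2.44 ± 0.34). Tnf had signals of 52.4, 110.2 and 69.7 at 0 h and 366 and 459.9 at 20 h, with 1886 and 2955 at 6 h (2.24 ± 0.32). For these 3 the 20 h arrays were above all 0 h arrays and below both 6 h arrays. Vegfa, an angiogenic factor, followed another course, with signals of 59.6, 53.9 and 66.8 at 0 h and 1761 and 1378 at 20 h beside 6 h signals of 677 and 189.7 (4.37 ± 0.54). Its 20 h arrays were above the 6 h arrays. The alarm cytokines Il1a (4.49 ± 0.17) and Il1b (3.22 ± 0.28) rose, as did Il15 (2.50 ± 0.19), which sustains NK and memory T cells, and Il12a (1.67 ± 0.23). Csf2, which encodes the GM-CSF the cells were grown in, did not pass (0.29 ± 0.22). With a constant of 64 added in place of 16, the median of the list was 0.89.

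Chemokines moved both ways, 8 of 21 up and 4 down, with a median of 0.09. Cxcl9, an attractant of Cxcr3-bearing T cells and the largest increase with the constant of 16, had signals of 2.43, 2.43 and 5.10 at 0 h and 2747 and 2060.5 at 20 h, with 5345 and 4666 at 6 h (6.96 ± 0.15, adjusted p = 1.41e-12). Cxcl10, a ligand of the same receptor, had signals of 22.4, 14.6 and 26.0 at 0 h and 1499.8 and 856 at 20 h (4.97 ± 0.28, adjusted p = 3.13e-08). The 0 h signals of Cxcl9 were all below 16, so its fold and rank depend on the added constant: with 64 added, Ptgs2 (5.28) stood above Cxcl9 (5.18). Ccl5 (2.68 ± 0.40) and the neutrophil attractants Cxcl1 (2.13 ± 0.19) and Cxcl2 (3.16 ± 0.27) rose. Ccl17, a ligand of Ccr4 made by dendritic cells, had signals of 2459, 3553 and 3982 at 0 h and 346 and 263 at 20 h (-3.37 ± 0.24). Ccl6, another CC chemokine, had signals of 1083, 842 and 520.3 at 0 h and 46.7 and 103 at 20 h (-3.21 ± 0.31). The arrays of both falling genes were apart. Ccl22, which shares the receptor of Ccl17, did not pass (-0.62 ± 0.29).

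Of 15 receptors for chemokines and related attractants, 4 rose and 1 fell. Ccr2, the receptor that brings monocytes out of marrow, had signals of 766, 766 and 586 at 0 h and 27.9 and 34.6 at 20 h (-3.93 ± 0.27, adjusted p = 1.81e-07). It was the list's only decrease, with no overlap. The scavenging receptor Ackr3 (2.49 ± 0.27) and Ccrl2 (2.03 ± 0.15) rose. Ccr7, which guides mature dendritic cells to lymph nodes, had signals of 685, 435 and 820.0 at 0 h and 1093 and 610.4 at 20 h, with 2040.2 and 1659.9 at 6 h, and did not pass at 20 h (0.38 ± 0.26).

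Costimulatory genes counted 6 increases and 2 decreases among 18, and their median was 0.39 at 20 h beside 1.51 at 6 h. Cd40, the receptor for T cell help, had signals of 72.8, 68.5 and 77.6 at 0 h and 741 and 612 at 20 h, with 2345 and 2009 at 6 h (2.96 ± 0.13). Cd86, a ligand of Cd28, had signals of 92.0, 105 and 76.9 at 0 h and 987 and 543 at 20 h (2.81 ± 0.27). Both were above their 0 h arrays at 20 h. Cd80, the other Cd28 ligand, did not pass (0.72 ± 0.29), nor did Cd83 (-0.23 ± 0.29). Tnfrsf9 (2.28 ± 0.30), its ligand Tnfsf9 (1.81 ± 0.32) and the adaptor Traf1 (2.07 ± 0.22) rose. Cd48, an adhesion ligand, fell (-1.48 ± 0.17). The median rested on single arrays: it was 0.05 without 20 h replicate 1 and 0.73 without 20 h replicate 2.

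Antigen presentation was read for each class of molecule. Of 14 class I genes, 10 rose and 4 did not pass (median 0.72). Tap1, which with Tap2 pumps peptides into the endoplasmic reticulum, had signals of 531, 791 and 856 at 0 h and 3481 and 3417 at 20 h (2.25 ± 0.18), and Tap2 rose by 2.11 ± 0.17. The loading factor Tapbp (1.71 ± 0.18) and the immunoproteasome subunit Psmb9 (1.44 ± 0.13) rose. So did H2-M3, a class I molecule that presents formylated peptides (1.37 ± 0.14); H2 genes hold near-identical copies whose probe sets may share signal. B2m did not pass (0.38 ± 0.17). Of 20 class II genes, 1 rose, 3 fell and 16 did not pass (median -0.20). The chains H2-Aa (-0.49 ± 0.24), H2-Ab1 (-0.69 ± 0.38) and H2-Eb1 (-0.57 ± 0.34) and the invariant chain Cd74 (-0.16 ± 0.22) did not pass. Ifi30, a thiol reductase of the endocytic pathway, fell, with signals of 1218, 1279.8 and 737 at 0 h and 250.1 and 211 at 20 h (-2.12 ± 0.26), and the arrays did not overlap. The protease Ctsl fell (-1.22 ± 0.27), and H2-Oa, which restrains peptide exchange on class II, rose (1.30 ± 0.17).

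The dendritic cell label was checked against its markers. Of 18 identity genes, 2 rose, 2 fell and 14 did not pass. Cd74 had signals of 7150.2, 5292 and 5822 at 0 h and 6032 and 4824 at 20 h, bright on every array, and Flt3, a cytokine receptor of the lineage, had 117, 218 and 198 at 0 h and 150.0 and 173 at 20 h (-0.09 ± 0.21). Itgax, which encodes CD11c and defines these cells by flow cytometry, had signals of 1100.0, 1326 and 1034 at 0 h and 184 and 219 at 20 h, with 509 and 594 at 6 h (-2.42 ± 0.19). Every 0 h array was above both 20 h arrays. Zbtb46, a transcription factor of classical dendritic cells, did not pass (-0.18 ± 0.33), and Irf8 rose (1.50 ± 0.23). In bulk cultures, a loss of cells of a type and less RNA per cell cannot be told apart.

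Uptake receptors split into 7 that rose, 5 that fell and 11 that did not pass. Marco, a scavenger receptor for bacteria, had signals of 6.66, 28.7 and 12.7 at 0 h and 694 and 776 at 20 h (4.61 ± 0.34). Mrc1, the mannose receptor, had signals of 884, 833 and 749 at 0 h and 16.0 and 32.6 at 20 h (-4.41 ± 0.24, adjusted p = 1.88e-08). These 2 moved in opposite directions, each without overlap. The lectin gene Clec4a2 fell (-2.77 ± 0.22), and the Fc receptor chain Fcer1g rose (1.44 ± 0.26). Of 20 monocyte and macrophage genes, 4 rose and 7 fell (median -0.25). Adgre1, which encodes F4/80, rose (2.51 ± 0.27), and Cd93 fell (-3.07 ± 0.30). Complement genes counted 3 increases and 5 decreases among 15: C1qa (-2.82 ± 0.42) and C1qb (-2.89 ± 0.51), chains of the initiating complex, fell, and the inhibitor Serping1 rose (1.79 ± 0.31). Apoe, a lipid carrier, had signals of 144, 70.6 and 1019.9 at 0 h and 31.3 and 6.60 at 20 h and did not pass (-2.89 ± 1.03). Of 29 lysosomal genes, 4 rose and 9 fell (median -0.07, and -0.31 after quantile normalization and 0.04 after median centring), from Gusb, a glucuronidase gene (-2.76 ± 0.18), to the protease gene Ctsh (1.34 ± 0.14).

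Nitric oxide and arginine genes split into 5 increases, 5 decreases and 6 that did not pass. Nos2, the inducible nitric oxide synthase, had signals of 6.74, 10.6 and 14.8 at 0 h and 666 and 767 at 20 h (4.78 ± 0.31, adjusted p = 1.1e-07). The arginine importer Slc7a2 had signals of 89.7, 148 and 95.7 at 0 h and 1359 and 1477 at 20 h (3.52 ± 0.24). Arg1, which draws on the same substrate, had signals of 889, 1137 and 934 at 0 h and 3820.2 and 3047 at 20 h, with 369 and 368 at 6 h (1.78 ± 0.19). All 3 were above their 0 h arrays at 20 h, and Arg1 stood below them at 6 h. Gch1, the first enzyme of tetrahydrobiopterin synthesis, rose (1.22 ± 0.21), whereas Pts, of the next step, fell (-1.86 ± 0.21), as did Qdpr, which recycles the cofactor (-1.89 ± 0.16). Acod1, which makes itaconate, rose (4.28 ± 0.27). Of 6 NADPH oxidase genes 2 rose, the activating GTPase Rac2 the further (1.10 ± 0.17), and 4 did not pass.

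Prostaglandin E2 synthesis was among the largest changes. Ptgs2, the inducible cyclooxygenase, had signals of 30.9, 16.6 and 70.2 at 0 h and 3946 and 3776 at 20 h (6.25 ± 0.32, adjusted p = 1.28e-08). Ptges, the terminal synthase, had signals of 8.65, 38.6 and 37.4 at 0 h and 2110.4 and 1902 at 20 h (5.60 ± 0.32, adjusted p = 2.89e-08). The arrays of both were apart. The phospholipase Pla2g4a, which releases their substrate, rose (2.15 ± 0.26). Of the other 11 genes among the 14 measured, 5 fell and 6 did not pass. Lta4h, of leukotriene B4 synthesis, had the largest decrease (-1.94 ± 0.20). Saa3, an acute-phase protein outside the lists, had signals of 272, 132 and 198 at 0 h and 8603 and 8875 at 20 h (5.39 ± 0.47, adjusted p = 1.41e-06), without overlap.

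Stress defence genes rose in 10 of 20 cases and fell in 2. Hmox1, which degrades heme, had signals of 1559.9, 1566 and 1409 at 0 h and 8664 and 9707 at 20 h, with 6897 and 3671 at 6 h (2.59 ± 0.24). The metal-binding Mt1 (2.54 ± 0.33) and Mt2 (2.53 ± 0.27) and mitochondrial Sod2 (1.65 ± 0.17) rose, while the transferase Gsto1 fell (-2.25 ± 0.25). Ephx1, an epoxide hydrolase outside the list, had signals of 320.3, 196 and 243 at 0 h and 10.6 and 6.41 at 20 h (-3.44 ± 0.21). Its 20 h arrays were below all 0 h arrays. Of 21 cell death genes, 11 rose and 10 did not pass (median 0.64). They held both arms: the inflammatory caspases Casp4 (2.72 ± 0.18) and Casp1 (1.95 ± 0.21) and the death receptor Fas (1.03 ± 0.18), and the survival genes Cflar (1.67 ± 0.20), Bcl2l1 (1.11 ± 0.17) and Mcl1 (0.78 ± 0.14). Of 22 genes of folding in the endoplasmic reticulum, 3 rose and 4 fell, both near the shares over all genes (12.6% and 18.5%). The 3 were Atf4 (1.95 ± 0.22), Ddit3 (1.47 ± 0.18) and Trib3 (1.95 ± 0.28), a transcription factor and its targets, and the chaperone Hspa5 did not pass (0.34 ± 0.19).

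Energy metabolism genes moved in opposite directions. Of 14 glycolytic genes, 8 rose and 1 fell (median 0.71). Slc2a1, a glucose transporter, had signals of 242, 224 and 178 at 0 h and 2266 and 2129 at 20 h (3.27 ± 0.34). Hk2, the inducible hexokinase, had signals of 423, 651 and 426 at 0 h and 2234 and 1887 at 20 h (2.03 ± 0.35). Hk1, the constitutive hexokinase and the list's only decrease, had signals of 1641, 2039 and 2213 at 0 h and 541 and 274 at 20 h (-2.29 ± 0.29). None of the 3 overlapped between times. Of 48 respiratory chain subunits, 33 fell and 15 did not pass (median -0.91). They spanned complex I (Ndufb6 -2.15 ± 0.20), complex II (Sdhc -0.83 ± 0.19), complex III (Uqcrq -1.60 ± 0.15), complex IV (Cox5b -1.53 ± 0.15) and the ATP synthase. Atp5o, of that synthase, had signals of 549, 443 and 177 at 0 h and 74.7 and 45.7 at 20 h (-2.30 ± 0.34). Of 21 genes of pyruvate entry and the citric acid cycle, 16 fell and 5 did not pass (median -0.75). The isocitrate dehydrogenase genes Idh1, cytosolic (-2.69 ± 0.22), and Idh2, mitochondrial (-2.69 ± 0.25), fell most. The medians at 6 h, on the same 0 h arrays, were -0.25 and -0.45.

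Lipid synthesis genes fell in 18 of 29 cases and rose in 2, with a median of -0.98 at 20 h and -0.96 at 6 h. Fdps, of the cholesterol pathway, had signals of 438, 467 and 233 at 0 h and 46.6 and 48.5 at 20 h (-2.58 ± 0.24). Fasn, the fatty acid synthase, had signals of 189.6, 213 and 183 at 0 h and 5.36 and 56.6 at 20 h (-2.42 ± 0.39). Both fell without overlap. Idi1 (-2.24 ± 0.24), Dhcr7 (-1.99 ± 0.23), the desaturase Scd1 (-2.08 ± 0.30) and the nuclear receptor Pparg (-1.84 ± 0.21) fell as well. The increases were Ch25h, which makes 25-hydroxycholesterol (1.99 ± 0.34), and the oxysterol receptor Nr1h3 (1.32 ± 0.16).

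Cell division genes had the lowest median of the 42 lists: 45 of 55 replication and mitosis genes fell, 1 rose and 9 did not pass, with a median of -1.93. Stmn1, a microtubule-destabilising protein and the largest decrease with the constant of 16, had signals of 1299, 2105 and 1657 at 0 h and 28.5 and 27.6 at 20 h, with 184 and 578 at 6 h (-5.25 ± 0.38, adjusted p = 2.77e-07). The other, dimmer probe set of Stmn1 did not pass. Cdk1, the mitotic kinase, had signals of 273, 389 and 337 at 0 h and 3.74 and 5.54 at 20 h (-4.07 ± 0.32). Its subunit Cks1b had signals of 338, 483 and 396 at 0 h and 4.85 and 7.83 at 20 h (-4.23 ± 0.22). In these 3 both 20 h arrays were far under every 0 h array. Mki67, a nuclear protein of dividing cells, had signals of 476, 598 and 491 at 0 h and 13.1 and 26.5 at 20 h (-3.93 ± 0.31). Its other, dimmer probe set went the other way and passed, with signals of 28.3, 32.4 and 28.9 at 0 h and 52.0 and 89.9 at 20 h (0.89 ± 0.24, adjusted p = 0.0124), so the direction of Mki67 rests on the brighter one. Top2a, the topoisomerase that untangles sister chromatids, had signals of 206, 239 and 178 at 0 h and 2.02 and 7.02 at 20 h (-3.45 ± 0.36). Kif20a, a kinesin of the dividing midzone, had signals of 473, 506 and 459 at 0 h and 22.2 and 9.48 at 20 h (-3.99 ± 0.33). All 3 were apart between times, so low at 20 h that the folds depend on the added constant; with 1 added, Cdk1 (-5.89) stood below Stmn1 (-5.83). Kpna2, a nuclear import receptor outside the list, had signals of 348, 307 and 263 at 0 h and 12.5 and 9.78 at 20 h (-3.56 ± 0.36, adjusted p = 4.41e-06).

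The decreases covered DNA synthesis and mitosis. With constants of 1 and 64 in place of 16 the median of the list was -2.69 and -1.24. It was -1.51 with all probe sets of a gene averaged. Replication genes were Mcm5 of the helicase (-3.30 ± 0.32) and the ribonucleotide reductase subunits Rrm1 (-2.90 ± 0.36) and Rrm2 (-3.15 ± 0.23). Mitotic genes were Ccnb2 (-3.38 ± 0.37), the kinases Aurka (-2.96 ± 0.29) and Aurkb (-2.49 ± 0.36) and Birc5 of the chromosomal passenger complex (-3.03 ± 0.29). Ccnd2, a G1 cyclin, was the only increase (1.54 ± 0.26), with signals of 90.2, 84.8 and 132 at 0 h and 262 and 399.6 at 20 h, while Ccnd3 did not pass (0.16 ± 0.24). Of 13 inhibitors of the cycle, 5 rose and 2 fell: Cdkn1a, which encodes p21, had signals of 489, 459 and 573 at 0 h and 1465 and 1348 at 20 h (1.45 ± 0.19). Gadd45b (2.58 ± 0.30) and Gadd45g (2.77 ± 0.26) rose and Cdkn1b did not pass (0.35 ± 0.32).

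Ribosomal protein genes were lower at 20 h: 17 of 30 measured fell and 13 did not pass, with medians of -0.89 at 20 h and 0.01 at 6 h against the same 0 h arrays. Rpl8, of the large subunit, had signals of 2809, 2585 and 2308 at 0 h and 449 and 397 at 20 h, with 1878 and 2403 at 6 h (-2.55 ± 0.16). Rps19, of the small subunit, had signals of 2117, 1752 and 1255 at 0 h and 381 and 273 at 20 h (-2.32 ± 0.22). The arrays of both were apart, and others such as Rps29 did not pass (0.45 ± 0.21). These genes have many near-identical processed copies that can share probes. Summed over the 30, the signal ran from 71799 to 75440 at 0 h and was 72517 and 77737 on the 6 h arrays, but 37562 and 39217 on the 20 h arrays. The 20 h arrays were also those with the higher actin 3′/5′ ratio, and its part in this decrease was not tested. The median was -1.53 over brighter probe sets alone and -0.57 with all probe sets of a gene averaged. Of 26 constitutive proteasome subunits, 3 rose and 10 fell (median -0.30), with the largest decrease in Psmc3, an ATPase of the regulatory particle (-1.47 ± 0.21).

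**Figure D4:**
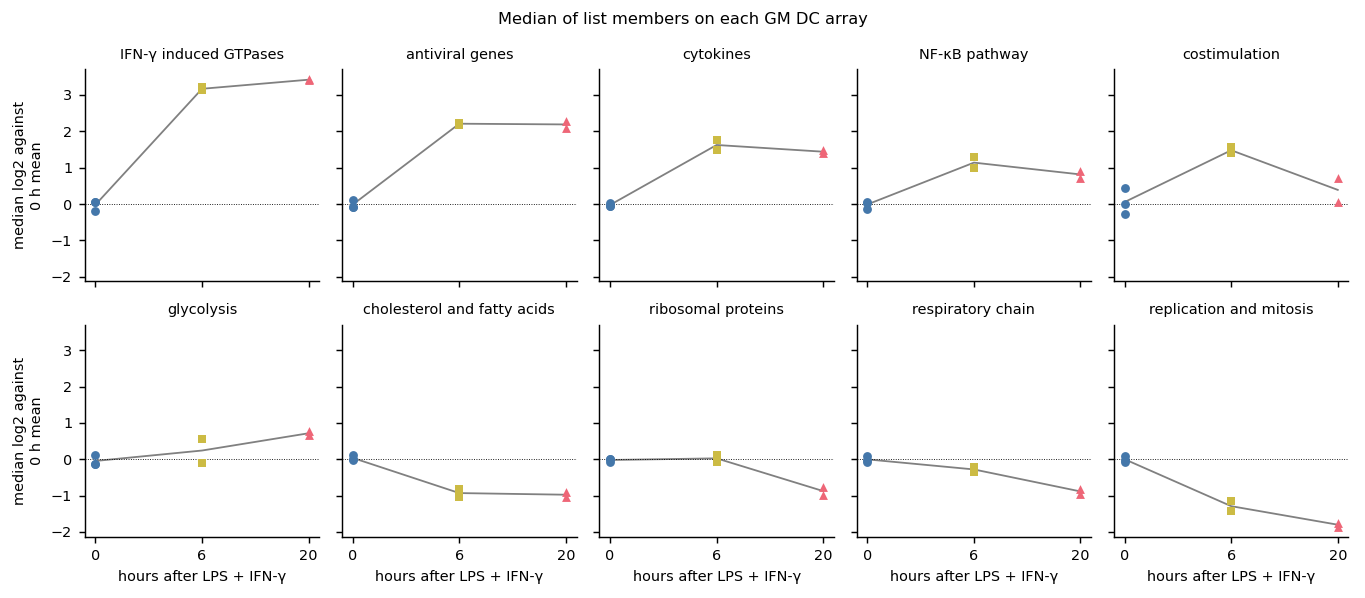
Median over list members of log2(signal + 16) minus the gene's mean at 0 h (vertical axis) on each GM array at 0, 6 and 20 h (horizontal axis, not to scale), for 10 lists; points are arrays and lines join the means. The ribosomal medians sit near 0 at 6 h and below -0.7 at 20 h on both arrays, whereas the cholesterol and fatty acid medians are already low at 6 h.

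Of 14 S100 and annexin genes, 9 fell and 1 rose (median -1.13, and -0.82 with all probe sets of a gene averaged). S100a4, a calcium-binding protein of motile cells, had signals of 3029, 3335 and 3299.8 at 0 h and 123 and 135 at 20 h, with 2107 and 2459 at 6 h (-4.48 ± 0.18, adjusted p = 1.6e-09). It was bright and even at 0 h and 6 h and low on both 20 h arrays. S100a6 (-1.84 ± 0.13) and Anxa3 (-2.33 ± 0.15) fell, and Anxa2, a membrane-binding annexin, rose (1.03 ± 0.21). Of 29 adhesion and cytoskeleton genes, 4 rose and 6 fell, both near the shares over all genes (12.6% and 18.5%). Among them the fibronectin receptor chain Itga5 rose (2.90 ± 0.30) and the actin-binding Coro1a fell (-1.39 ± 0.17). Of 21 proteases and inhibitors, 4 rose and 2 fell, with Mmp9, a gelatinase, at 1.63 ± 0.28 and Plaur, the urokinase receptor, at -1.15 ± 0.26.

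Markers of other cells that marrow cultures can hold were read beside these results. Of 16 neutrophil markers, 7 fell and 3 rose, with a median of -0.77, and their summed signal was 9844 to 10043 at 0 h and 4425 and 5574 at 20 h. The granule genes Ngp (-2.19 ± 0.29), Camp (-1.68 ± 0.29) and Ltf (-1.86 ± 0.33) fell, Ly6g had signals of 64.3, 42.9 and 57.8 at 0 h and 75.1 and 99.0 at 20 h and did not pass (0.54 ± 0.34), and Lcn2, which LPS also induces in other cells, rose (3.63 ± 0.34). The list holds S100a8 (-1.98 ± 0.22) and S100a9 (-1.68 ± 0.27), which the S100 list counts as well, and the part of neutrophils in that list was not tested. With constants of 1 and 64 in place of 16 the median of the neutrophil list was -1.59 and -0.36. B cell markers counted 0 increases and 2 decreases among 11, and their summed signal was 347 to 443 at 0 h and 389 and 415 at 20 h. T and NK cell markers counted 1 increase among 15 and summed to 136 to 204 and then 294 and 364. Mast cell, basophil and eosinophil markers had 2 increases among 17 (228 to 322, then 402 and 425), one of them Hdc (1.83 ± 0.30). Erythroid markers had 1 increase and 1 decrease among 10 (935 to 1197, then 742 and 971). Stromal and endothelial markers had 2 increases and 5 decreases among 18 (1771 to 3101, then 1495 and 1750.3). Of 9 plasmacytoid markers 2 rose, Irf7 and Tcf4, and the summed signal went from 523 to 602 at 0 h to 2068 and 2438, most of it Irf7, which interferon induces in many cells.

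The same net response was read in GM4 DC, whose group means share no array with it. The fit took the spread of each probe set from all 15 arrays, so calls in the 2 types are not independent. Of the 1040 genes higher in GM DC, 540 (51.9%) were higher in GM4 DC, where they were 67.8% of the 796 called (9.65% of all genes). Of the 1527 lower genes, 924 (60.5%) were lower in GM4 DC, 78.2% of its 1182 (14.3% of all genes). A gene called in only one type is not thereby shown to differ. The difference of the 2 responses, tested itself, passed for 157 of 12422 probe sets (1.26%), 69 (0.555%) with the response higher in GM4 DC and 88 (0.708%) lower. By gene it passed for 123 (1.49%), 52 (0.63%) higher and 71 (0.861%) lower. The count of 157 probe sets rested on single arrays: it was 15 when GM4 20 h replicate 2 was left out and 34 when GM4 20 h replicate 1 was. Leaving out GM 20 h replicate 2 gave 41, GM 20 h replicate 1 gave 59 and GM 0 h replicate 2 gave 68. Leaving out GM4 0 h replicate 1 gave 77 and GM4 6 h replicate 2 gave 104. The group of the 3 GM4 0 h arrays rests on their titles, since their source labels speak of exposure to LPS + IFN-γ.

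The genes with the largest differences of response included secreted and signalling genes. Fos fell in GM DC and was 0.20 ± 0.27 in GM4 DC (difference 2.64 ± 0.38, adjusted p = 0.00561). Its GM4 signals were 281 ± 53.8 at 0 h and 324 ± 62.9 at 20 h (mean ± SD, n = 3 and 2), against 1668 ± 302 and 292 ± 40.4 in GM DC, so the means were close at 20 h and apart at 0 h. Rgs2 fell less in GM4 DC (-1.27 ± 0.20, difference 2.19 ± 0.28), as did Cd93 (-0.97 ± 0.30, difference 2.10 ± 0.43). Cxcl5, a neutrophil attractant, did not pass in GM DC (0.24 ± 0.34) and was 2.60 ± 0.34 in GM4 DC (difference 2.36 ± 0.48). In the other direction, Ccl5 was 0.13 ± 0.40 in GM4 DC (difference -2.55 ± 0.56) and Plac8 had GM signals of 294, 169 and 112 at 0 h and 2403 and 2399 at 20 h (3.64 ± 0.33) against 0.76 ± 0.33 (difference -2.88 ± 0.46). Fbp1, a gluconeogenic enzyme, did not pass in GM DC (-0.24 ± 0.46) and was -4.37 ± 0.46 in GM4 DC (difference -4.13 ± 0.65). The neutrophil granule gene Ngp fell further in GM4 DC (-5.72 ± 0.29, difference -3.52 ± 0.41). Ccl5 had GM4 signals of 5314 ± 996 at 0 h and 5737 ± 197 at 20 h against 1657 ± 1145 and 9147 ± 229 in GM DC, and Fbp1 had 433 ± 272 at 0 h and 3.25 ± 0.327 at 20 h against 13.4 ± 5.06 and 9.35 ± 8.96. For both, as for Fos, the 0 h means of the cell types were further apart on the log2 scale than the 20 h means, and the GM4 0 h arrays are those whose titles and source labels differ. Rgs2 and Ngp passed under every alternative. Without GM4 20 h replicate 2 the limma adjusted p of the difference was 0.0538 for Fos, 0.173 for Cxcl5, 0.168 for Cd93, 0.0635 for Fbp1, 0.0771 for Plac8 and 0.178 for Ccl5.

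**Figure D5:**
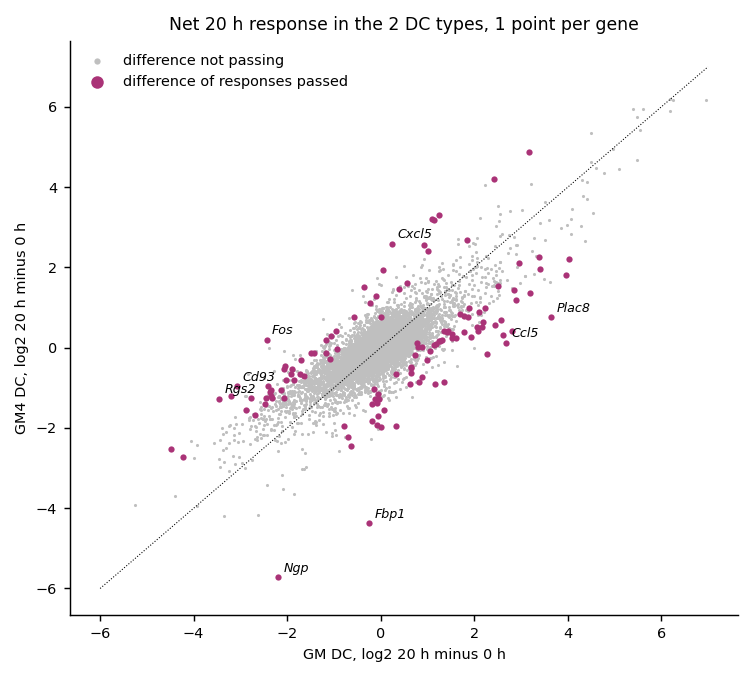
Difference between 20 h and 0 h in GM4 DC (vertical axis, log2) against that in GM DC (horizontal axis, log2) for 8251 genes; the dotted line marks equal responses and purple points passed the test of the difference (123 genes). The 8 labelled genes are the 4 largest differences each way among them.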

How the data were processed

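RNA of the 5 GM DC arrays was labelled with biotin and hybridised by the submitters to a 1-colour mouse expression array. The deposited values were intensity signals per probe set, made by the authors with MAS5, per the submitters' processing notes; its version and settings are not given in the sources used here. Detection calls were not used. From the 12488 probe sets, 66 controls were left out, and 16 was added before taking log2. Differences were fitted with limma 3.58.1 in R 4.3.3 as 6 group means over the 15 arrays, with an intensity trend, and adjusted over all 12422 probe sets by the Benjamini-Hochberg method; residual degrees of freedom were 9. Of the probe sets, 10833 had 1 gene symbol in the platform annotation, 396 several and 1193 none, and only the first were named; 10817 matched RefSeq by gene ID. Each gene was read from the brightest, by mean log2 value, of its probe sets (2073 genes had several). In 15 called genes another probe set was called the other way. Some named genes that passed had another probe set that did not, among them Stmn1, Fos, Cd86, Tap1, Hk2, Rela, Mcm5, Rrm1 and Lcn2.

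Genes named by rank were the 12 largest increases and decreases that passed without overlap of the arrays, and the 4 largest differences of response each way. The 42 gene lists (961 genes, 767 measured) and their members were chosen with earlier results of these data known, so their counts are descriptions, read against all genes. Examples within a list were preferred where the call held under every alternative. The series' text calls the replicates biological; same-numbered arrays at 0 h and 20 h deviated together at r = 0.146 over only 2 shared numbers, so no pairing was used. The number of arrays limits the precision. The code was tested on simulated data. Alternatives were other constants, quantile and median scaling, a filter on dim probe sets, no trend, array weights, the replicate block, an RNA quality covariate, only the compared groups, averaged probe sets and leaving out each array. Promoter sequences came from the RefSeq table for GRCm38.p6, without bases after the start.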

Additional observations from a re-analysis of the deposited data

Results flagged for a closer look

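The 20 h response differed between GM4 and GM DC for 157 probe sets, by limma's test of the difference itself. A higher response means a log2 change from 0 h that was more positive or less negative. Among the genes named above, the response was higher in GM4 DC through a smaller fall, by the log2 difference given, for S100a4 (1.95), Cks1b (1.49), Rgs2 (2.19), Cd93 (2.10), Anxa3 (1.07), Ccl6 (2.02), Clec4a2 (1.50), Ifi27 (1.14) and Qdpr (1.35). Fos (2.64) fell in GM DC and did not pass in GM4 DC. Cxcl5 (2.36), Cd14 (1.39) and Cxcl2 (1.71) were more positive in GM4 DC. At 20 h the GM4 mean was lower for Cd14 (4739 against 7391) and higher for Cxcl2 (1728 against 1102) and Cxcl5 (209 against 27.9). The response was lower in GM4 DC for the interferon-response genes Gbp2 (-1.82), Irf1 (-1.12), Psmb9 (-1.02), Socs1 (-2.13) and Usp18 (-1.45). Costimulation and NF-κB genes with a lower response were Cd40 (-0.85), Cd86 (-2.39), Gadd45b (-1.88), Nfkbia (-1.55), Tnfrsf9 (-2.44), Traf1 (-1.65) and Traf6 (-1.11). A lower response is not a lower level at 20 h. All of these had a higher 0 h mean in GM4 DC than in GM DC, such as 798 against 91.4 for Cd86. At 20 h the GM4 mean was higher for Cd40, Cd86, Tnfrsf9 and Traf1 and lower for Gadd45b, Nfkbia and Traf6. The remaining lower responses were those of Fbp1 (-4.13), Ngp (-3.52), Plac8 (-2.88), Ccl5 (-2.55), Arg1 (-1.40), Ctsh (-0.92), H2-Oa (-1.11) and Il1r2 (-2.07). Of these, Fbp1 and Ngp were more negative in GM4 DC. Il1r2 rose in GM DC (1.16 ± 0.24) and fell in GM4 DC (-0.91 ± 0.24). The others were less positive in GM4 DC. How many of these calls hold depends on single arrays of the series, as the counts without each array show. No group held more than 3 arrays, so single outlying arrays were not tested.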

How the results depend on the processing

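The counts of the 20 h response kept within 1.5 times of their main value under every alternative run: 2383 to 3670 probe sets passed, 2280 to 3298 of them shared with the main 3358. The lowest count was without 20 h replicate 2. Of 426 list members that passed, 325 passed under every alternative in the same direction where tested, and none changed sign. The test of the difference between GM4 and GM responses depended more on the setting. It passed for 157 probe sets in the main fit, 304 with array weights, and 15 to 168 without one array. The part higher in GM4 DC, 69 probe sets, was 32 with median centring, 116 without dim probe sets, 152 with array weights and 7 to 83 without one array. The part lower in GM4 DC, 88, was 152 with array weights and 8 to 100 without one array. With the replicate number as a block the difference passed for 260 probe sets, 129 of them higher in GM4 DC, and the 20 h response for 3611; the labels give the numbers no shared source, so this is no paired design. Causes of these shifts were not tested. Without a detection call, signals under 16 hold little order.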
